A study of Homo sapiens with 18 samples.

Results

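The genes described here encode 10 subunits of voltage-gated calcium channels: the pore-forming subunits CACNA1A, CACNA1B, CACNA1C, CACNA1D, CACNA1E, CACNA1G and CACNA1H, the auxiliary subunits CACNA2D1 and CACNA2D2, and the cytoplasmic subunit CACNB3. They were picked by name, with earlier results of these data known. Their Ensembl IDs were found among the 60612 rows of the gene count matrix, where all 10 had a row. Messenger RNA had been sequenced from cultured human cell lines that carried a plasmid. HepG2 is a line from a liver tumour and SH-SY5Y a line from a neuroblastoma, a tumour of the sympathetic nervous system. Control cells of each line received a plasmid that makes mNeonGreen, a green fluorescent protein, and cells of the EXACT1 group a plasmid that makes mNeonGreen together with a miRNA named EXACT1. Every group held 3 libraries, and no library came from cells without a plasmid. HepG2 cells were transfected with a lipid reagent at 100 ng of plasmid per well and SH-SY5Y cells by nucleofection, so line and delivery cannot be told apart. The series title places the work in gene therapy for Rett syndrome, and the comparison of plasmids asks which host transcripts differ when EXACT1 is present. The third line of the series, HEK293A, was not used because its columns disagree with the row IDs.

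Voltage-gated calcium channels open when the cell membrane depolarises and let calcium in from outside. The alpha1 subunit forms the pore and senses voltage, and its gene decides the channel type: L-type for CACNA1C and CACNA1D, P/Q-type for CACNA1A, N-type for CACNA1B, R-type for CACNA1E, and the low-voltage T-type for CACNA1G and CACNA1H. The alpha2delta subunit, which sits on the outer face, and the beta subunit, which binds the alpha1 subunit from inside, bring high-voltage channels to the surface and tune their opening. T-type pores conduct without them. In sympathetic neurons N-type channels trigger transmitter release, and L-type channels couple activity to gene expression. Hepatocytes are not electrically excitable and take up calcium mainly by other routes.

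RefSeq promoters (GRCh38.p14, 250 bases before to 50 after a start) matched 8 of them with 11 entries. CACNA1G and CACNA1H had no entry in the table. The GC box, GGGCGG on either strand, is the binding motif of Sp-family factors, and 8 of the 11 entries held it, against 45.0% of all 35116 promoters of that length. A TATA box, TATAAA on either strand, was in 0 of the 11 and in 11.5% of all promoters. An E-box, CANNTG on either strand, was in 6 of the 11 and in 68.7% of all, CCAAT on either strand in 3 and 34.6%, and the cyclic AMP response element TGACGTCA in 0 and 1.85%. The median GC content was 70.0% over the 11 entries and 58.7% over all promoters. These are matches of letters in a window, not measured sites. The stretches below are shown because CACNA1B, CACNA2D1 and CACNA2D2 led the pore and alpha2delta genes of SH-SY5Y. Each is a window of 30 bases, placed within the 250 bases before the start where it holds the most GC boxes. The windows are thus rich in boxes by choice. Their first bases lie at -125 (CACNA1B), -146 (CACNA2D1) and -109 (CACNA2D2) from the start. Each stretch is on the gene's strand from 5′ to 3′, with GC boxes in capitals. None overlaps an exon of GENCODE release 29.
CACNA1B (chr9:137877657-137877686, plus strand): cgGGGCGGGGCGGGGGCGGccgcgGGGCGG
CACNA2D1 (chr7:82444073-82444102, minus strand): cctgcgcacgccGGGCGGcgggagcgagcc
CACNA2D2 (chr3:50503714-50503743, minus strand): gcggGGGCGGgccagcccgggaagagagag
The CACNA1B stretch held 4 of the 5 GC boxes in its 250 upstream bases, the first 3 of which share or abut letters. CACNA2D1 and CACNA2D2 had 3 boxes each in theirs, 1 of them in the stretch shown. CACNA2D2 had a further promoter entry, upstream of this one, with 0 GC boxes, and CACNA1E, at 48.0% GC, also had 0. Over the whole promoter entry, CACNA1C held 6 GC boxes and CACNA1D 5, against 5 for CACNA1B.

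The HepG2 libraries totalled 70897097 to 77100150 counts each and the SH-SY5Y libraries 66056962 to 72587614. In HepG2, 12 of 12 hepatocyte markers averaged over 1 CPM (the count of a gene relative to the library's total), and in SH-SY5Y 11 of 12 sympathetic neuroblast markers did. So did 8 of the hepatocyte markers in SH-SY5Y and 3 of the neuroblast markers in HepG2. Summed hepatocyte markers ran from 92243 to 100144 CPM in HepG2 and from 233 to 295 CPM in SH-SY5Y. Summed neuroblast markers ran from 5904 to 7521 CPM in SH-SY5Y and from 5.08 to 7.39 CPM in HepG2. A library of each line stood apart from its group. HepG2 EXACT1 replicate 1 had 9.83% of its counts on 86 ribosomal protein genes, against 4.64% to 4.79% in the other 5 HepG2 libraries. In SH-SY5Y control replicate 2 they took 13.0%, where the rest of that line ran from 5.47% to 5.92%. Values without them are given where they move a channel gene by over 1.5 times or turn an order.

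The 2 lines carried different sets of channel genes. In SH-SY5Y the N-type pore gene CACNA1B, the T-type pore gene CACNA1G, both alpha2delta genes and CACNB3 averaged over 10 CPM with either plasmid, while in HepG2 CACNA1H was the only member that averaged over 1 CPM. With the control plasmid, 9 of the 10 genes had enough counts to be tested, 7 were higher in SH-SY5Y, 1 (CACNA1H) was lower and 1 (CACNA1D) did not pass. Calls are at an adjusted p under 0.05 in edgeR's quasi-likelihood test over all genes. Of the 19775 genes tested, 53.2% were called, 30.0% higher in SH-SY5Y and 23.2% lower. The 10 genes were picked with earlier results of these data known, so they are no independent draw to set against such shares. With the EXACT1 plasmid, in libraries the first comparison did not use, 8 of 9 tested members were higher and CACNA1H was lower. There 52.4% of 20105 genes were called, 28.1% higher and 24.3% lower. The SH-SY5Y libraries lay above all HepG2 libraries of the same plasmid for 8 of the 10 genes with either plasmid. Such separation held for 48.5% of tested genes with the control plasmid and 58.1% with EXACT1. CACNA1H was separated in the other direction, as were 21.9% and 18.4% of tested genes. In bulk RNA, fewer expressing cells and less RNA per cell cannot be told apart.

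**Figure D1:**
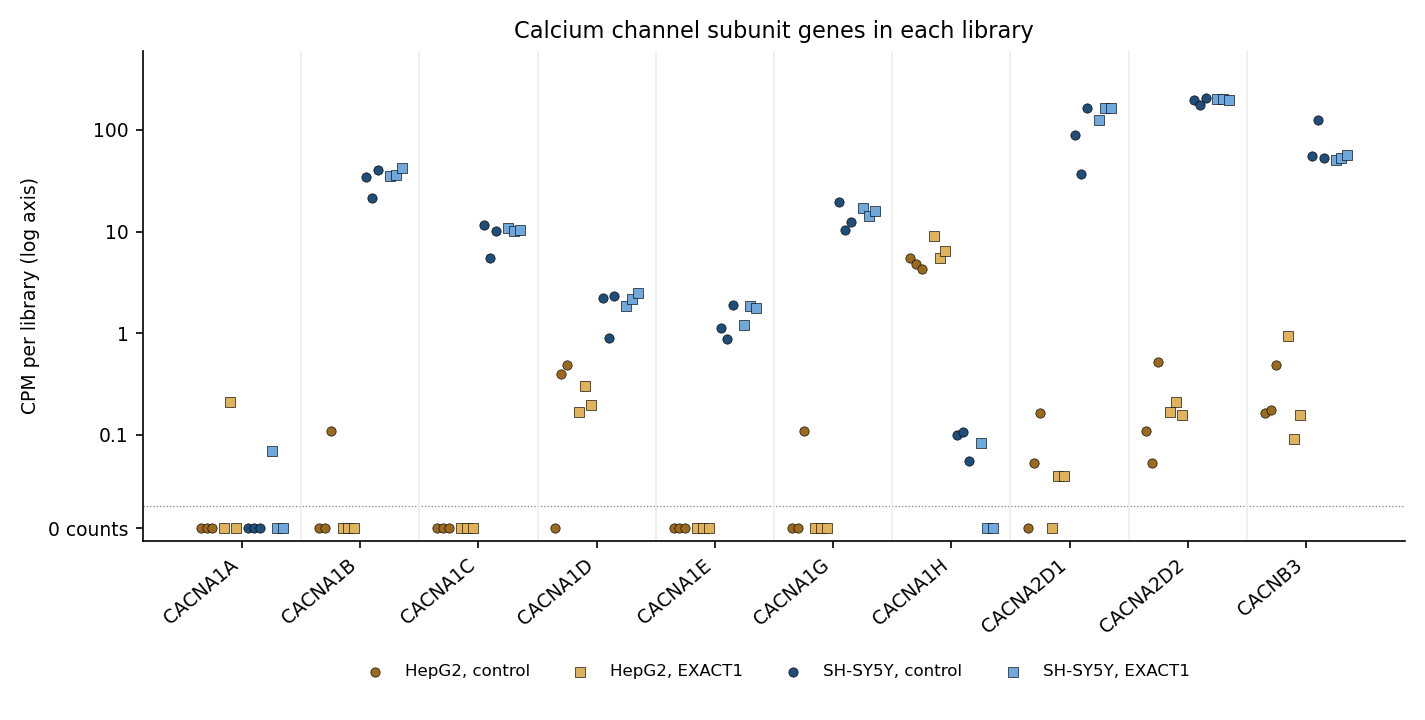
CPM of each of the 10 genes in each of the 12 libraries on a log axis, with libraries without a count drawn on the bottom line. Points are single libraries in the order of replicates 1 to 3, circles for the control plasmid and squares for EXACT1. CACNA1H is the only tested gene with HepG2 above SH-SY5Y, and the SH-SY5Y control replicate that sits low for most genes and high for CACNB3 is replicate 2.

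Among high-voltage pore genes, CACNA1B, the N-type pore (chr9:137877789-138124624, GRCh38), had the highest level in SH-SY5Y. Its control libraries held 34.2, 21.2 and 40.6 CPM and its EXACT1 libraries 35.3, 36.0 and 42.5 CPM. In HepG2 it had 8 counts in control replicate 3 and 0 in the other 5 libraries. All SH-SY5Y libraries were thus high and all HepG2 libraries at or near 0, with no overlap. The log2 difference with the control plasmid was 9.08 ± 1.07 (SE, n = 3 per line; edgeR adjusted p = 0.000729). Its size rests on the 8 counts of HepG2 control replicate 3. Without that library no HepG2 count was left, SH-SY5Y was at least 789-fold higher, taking 3 counts per library as the floor, and the edgeR adjusted p was 0.000820. With EXACT1, where the HepG2 libraries were all at 0, SH-SY5Y was at least 943-fold higher by the same floor (edgeR adjusted p = 0.000154). Every fold given as at least is a ratio of CPM without scaling between libraries, while edgeR values use TMM scaling. Without scaling, the median log2 difference over all genes was higher by 0.65 with control and 0.90 with EXACT1. These folds are thus not lower bounds of the scaled difference.

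CACNA1C (chr12:1970786-2697950) and CACNA1D (chr3:53328963-53813733) encode L-type pores. CACNA1C had 0 counts in all 6 HepG2 libraries. In SH-SY5Y it stood at 11.6, 5.43 and 10.2 CPM with the control plasmid and at 10.7, 10.2 and 10.3 CPM with EXACT1. It was at least 223-fold higher in SH-SY5Y with the control plasmid (edgeR adjusted p = 0.000358) and at least 259-fold higher with EXACT1 (edgeR adjusted p = 0.000242). CACNA1D was low in both lines. In HepG2 control it had 0, 30 and 36 counts and in SH-SY5Y control 158, 59 and 169. In HepG2 EXACT1 it had 12, 23 and 15 counts and in SH-SY5Y EXACT1 135, 158 and 174. SH-SY5Y was above HepG2 without overlap with either plasmid. The log2 difference was 1.93 ± 1.15 with the control plasmid and did not pass (edgeR adjusted p = 0.200, 95% interval -0.82 to 4.67). With EXACT1 it was 2.38 ± 0.40 and passed (edgeR adjusted p = 0.00293). In a single fit of all 12 libraries it missed the threshold (2.35, edgeR adjusted p = 0.0536).

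CACNA1E (chr1:181317690-181808084), the R-type pore, was also at 0 in all 6 HepG2 libraries. Its SH-SY5Y libraries held 1.12, 0.878 and 1.90 CPM with the control plasmid and 1.20, 1.83 and 1.77 CPM with EXACT1. SH-SY5Y was at least 32.0-fold higher with control and at least 39.9-fold higher with EXACT1 (edgeR adjusted p = 0.00170 and 0.00122). CACNA1A (chr19:13206442-13633025), the P/Q-type pore, was not detected in 10 of the 12 libraries. It had 16 counts in HepG2 EXACT1 replicate 2 and 5 in SH-SY5Y EXACT1 replicate 1. It entered no test. A count of 0 allows up to 3 counts per library, which was 0.0430 CPM on average in SH-SY5Y control and 0.0406 CPM in HepG2 control, for counting error only. That floor, and each fold given as a lower bound, takes the deposited counts as numbers of reads.

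The T-type pores were split between the lines. CACNA1G (chr17:50561068-50627474) held 19.6, 10.4 and 12.3 CPM in SH-SY5Y control and 16.9, 14.4 and 15.7 CPM in SH-SY5Y EXACT1. In HepG2 it had 8 counts in control replicate 3 and 0 in the other 5 libraries. Its log2 difference with the control plasmid was 7.90 ± 1.14 (SE, n = 3 per line; edgeR adjusted p = 0.00163). That size too rests on HepG2 control replicate 3, and without it SH-SY5Y was at least 347-fold higher (edgeR adjusted p = 0.00124). With EXACT1 it was at least 389.5-fold higher in SH-SY5Y (edgeR adjusted p = 0.000206). CACNA1H (chr16:1153121-1221772) ran the other way. It stood at 5.46, 4.76 and 4.24 CPM in HepG2 control and at 9.11, 5.52 and 6.47 CPM in HepG2 EXACT1, from 313 to 646 counts a library. In SH-SY5Y it had 7, 7 and 4 counts with the control plasmid and 6, 0 and 0 with EXACT1. The log2 difference, SH-SY5Y over HepG2, was -6.39 ± 0.50 with the control plasmid and -8.83 ± 1.11 with EXACT1 (edgeR adjusted p = 0.000141 and 0.00101). The size of the second rests on few SH-SY5Y counts, and without SH-SY5Y EXACT1 replicate 1, the library with 6 counts, no count was left on that side.

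Of the alpha2delta genes, CACNA2D2 (chr3:50362799-50504244) was the steadiest in SH-SY5Y. It held 195, 176 and 205 CPM with the control plasmid and 203, 202 and 199 CPM with EXACT1. The HepG2 libraries had 8, 4 and 38 counts with control and 12, 16 and 12 with EXACT1. The lines were far apart in every library, with a log2 difference of 9.10 ± 0.88 with control and 9.21 ± 0.33 with EXACT1 (edgeR adjusted p = 0.000355 and 2.55e-05). CACNA2D1 (chr7:81946444-82443798), which like CACNA2D2 encodes a binding site of gabapentin, was spread more widely. Its SH-SY5Y control libraries held 89.9, 36.4 and 162.6 CPM and its EXACT1 libraries 125.0, 163 and 165 CPM. In HepG2 it had 0, 4 and 12 counts with control and 0, 3 and 3 with EXACT1. The log2 difference was 9.65 ± 1.07 with control and 11.52 ± 0.65 with EXACT1 (edgeR adjusted p = 0.000580 and 7.08e-05). The size of the second rests on few HepG2 counts, whose mean of 0.0261 CPM lay under the floor of 0.0402 CPM. Without HepG2 control replicate 3 the values with control were 10.51 for CACNA2D2 and 10.99 for CACNA2D1, and both were still called.

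CACNB3 (chr12:48813794-48828941), a beta subunit found with N-type channels in neurons, held 55.2, 124 and 52.7 CPM in SH-SY5Y control and 50.3, 53.0 and 56.8 CPM in SH-SY5Y EXACT1. In HepG2 it had 12, 13 and 36 counts with the control plasmid and 67, 7 and 12 with EXACT1. The high SH-SY5Y library was control replicate 2 and the high HepG2 library EXACT1 replicate 1, the same 2 libraries that stood apart on ribosomal protein genes. The lines did not overlap, and the log2 difference was 7.59 ± 0.79 with control and 6.02 ± 1.04 with EXACT1 (edgeR adjusted p = 0.000472 and 0.00355). Without HepG2 EXACT1 replicate 1 the second value was 7.93. The first was 6.81 without SH-SY5Y control replicate 2 and 8.25 without HepG2 control replicate 3. All 3 were still called.

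The median log2 difference of the tested members was 9.08 with control and 9.49 with EXACT1. With genes at 0 in HepG2 held at their lower bound, which is unscaled, it was 7.80 and 8.02. Over all genes tested it was 0.27 and 0.18 with scaling, and 0.91 and 1.08 without. Without scaling between libraries, the median over all genes rose by 0.65 with control and 0.90 with EXACT1, and the share of calls that were higher in SH-SY5Y moved from 56.3% to 72.5% and from 53.6% to 74.1%. No member changed direction between lines under any scaling tried. HepG2 control replicate 3 had the highest HepG2 control count of CACNA1B, CACNA1D, CACNA1G, CACNA2D1, CACNA2D2 and CACNB3. Summed neuroblast markers in that library were 6.50 CPM, against 7.39 and 6.44 CPM in control replicates 1 and 2. Of 10 neuroblast markers that are high in SH-SY5Y, HepG2 levels were between 0.0434% and 0.958% of those in SH-SY5Y, with a median of 0.0600%. The HepG2 level was 0.0396% of that in SH-SY5Y for CACNA2D1, 0.0517% for CACNA1B, 0.103% for CACNA2D2, 0.122% for CACNA1G, 0.515% for CACNB3 and 13.0% for CACNA1D. CACNA1C and CACNA1E were at 0 in HepG2. For CACNA1H, SH-SY5Y stood at 0.964% of HepG2, and 11 hepatocyte markers there at 0.158% to 0.308% of HepG2. What gave rise to these low counts was not tested.

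Levels of different genes were compared per length, as RPKM, the CPM of a gene divided by its exon length in kilobases. In SH-SY5Y control the order was CACNA2D2 at 30.4 ± 2.31 RPKM (SD, n = 3), CACNB3 at 10.8 ± 5.63, CACNA2D1 at 10.7 ± 7.03, CACNA1B at 3.24 ± 1.00, CACNA1G at 1.45 ± 0.501, CACNA1C at 0.475 ± 0.169, CACNA1D at 0.0883 ± 0.0390 and CACNA1E at 0.0711 ± 0.0293. Neighbours in that order did not overlap, except CACNB3 with CACNA2D1, CACNA2D1 with CACNA1B, and CACNA1D with CACNA1E. The place of CACNB3 rested on replicate 2, where CACNB3 stood at 17.3 RPKM and CACNA2D1 at 4.04 RPKM. Without that library, an alternative chosen after seeing the data, CACNA2D1 averaged 14.0 RPKM and CACNB3 7.54 RPKM, and the ranges did not overlap. In SH-SY5Y EXACT1, too, CACNA2D1 (16.8 ± 2.52 RPKM) came before CACNB3 (7.46 ± 0.462 RPKM), and these did not overlap. In HepG2 control, CACNA1H led at 0.560 ± 0.0713 RPKM, and CACNB3 followed at 0.0385 ± 0.0257 RPKM without overlap. The values depend on the length used. With the longest transcript in place of all exons, CACNA1D in SH-SY5Y was 0.222 RPKM over the 6 libraries, CACNA1C 0.725 RPKM and CACNB3 16.2 RPKM.

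Set beside the other 16 subunit genes, different genes led the alpha1, alpha2delta and beta classes in the 2 lines, while CACNG4 led the gamma class in both. CACNA1H made up 96.0% ± 4.28 (SD, n = 3) of the summed RPKM of the 10 alpha1 genes in HepG2 control. In SH-SY5Y control, CACNA1B made up 60.5% ± 6.06, CACNA1G 27.4% ± 6.00 and CACNA1C 8.74% ± 0.907. N-type and T-type pores thus held most of the alpha1 RNA there. The alpha2delta RNA of SH-SY5Y control was 75.7% ± 11.5 CACNA2D2 and 24.3% ± 11.5 CACNA2D1, whereas in HepG2 99.0% ± 1.11 was CACNA2D4, which is not among the 10 genes. CACNB3 was 74.8% ± 5.71 of beta RNA in SH-SY5Y control and 6.28% ± 3.79 in HepG2 control, where CACNB4 was 57.2% ± 1.58. That share depends on the length used: CACNB4 in HepG2 control was 0.343 RPKM by all exons and 1.45 RPKM by longest transcript. In HepG2 EXACT1, CACNB4 was 44.6% ± 25.9 and CACNB1 36.3% ± 14.9. In replicate 1 of that group CACNB1 (0.231 RPKM) stood above CACNB4 (0.0642 RPKM). Gamma subunit genes took 77.9% ± 3.31 of the summed RPKM of all 26 genes in SH-SY5Y control and 3.58% ± 1.44 in HepG2 control. The 10 genes together took 20.9% ± 3.41 and 11.9% ± 1.78.

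**Figure D2:**
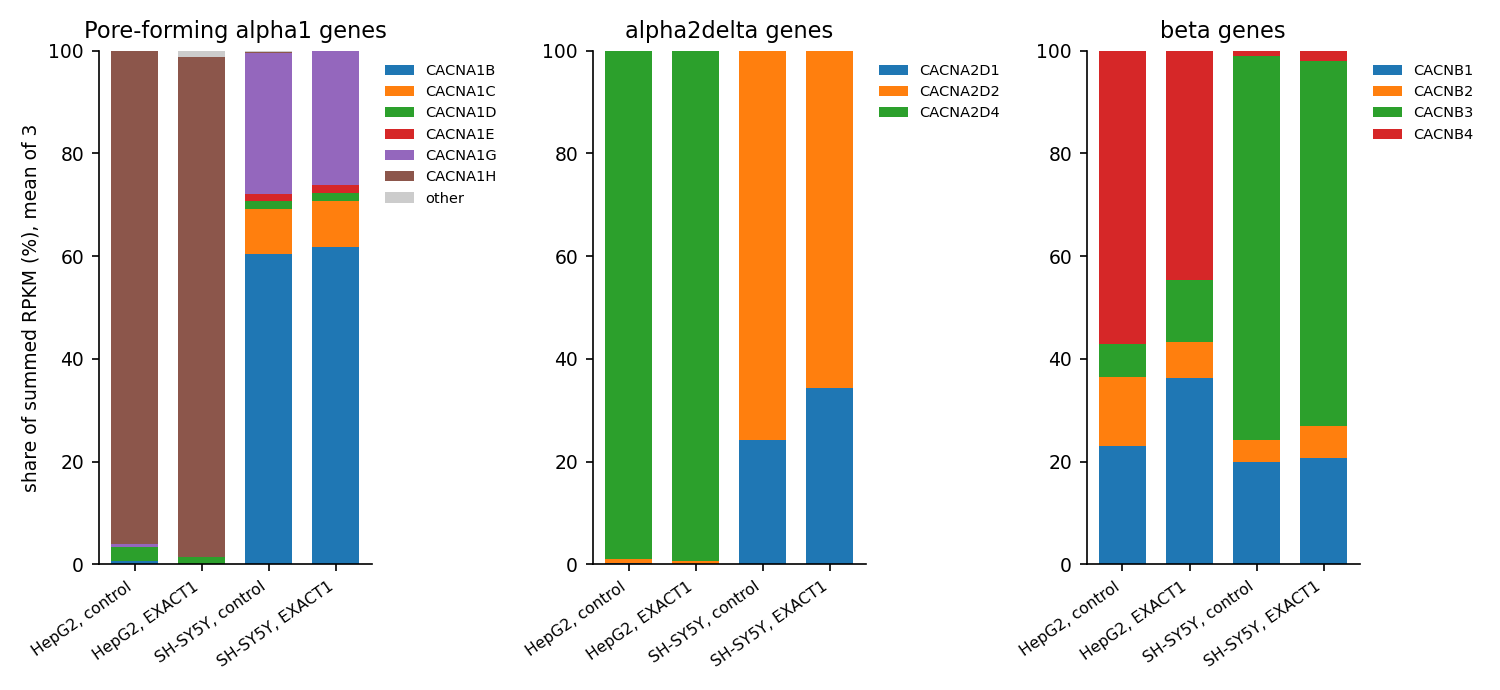
Share of each gene in the summed RPKM of its subunit class, as the mean of 3 libraries in each group, for 10 alpha1, 4 alpha2delta and 4 beta genes. CACNA1H fills the alpha1 bars of HepG2, and CACNA1B and CACNA1G most of those of SH-SY5Y. CACNA2D4 fills the alpha2delta bars of HepG2.

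EXACT1 was next compared with the control plasmid in each line. These comparisons use the same control libraries as the comparison of lines. In HepG2, 4 of the 10 genes had enough counts to be tested, and 0 were called. Over all 17139 genes tested in HepG2, 0% were called by edgeR, while 164 (0.957%) had an unadjusted p under 0.05. DESeq2 called 10 and limma voom 2. CACNA1H, the main pore gene of HepG2, was higher in every EXACT1 library than in any control library at the CPM given above. Such separation upward held for 4.89% of tested genes. Its log2 difference was 0.68 ± 0.35 (SE, n = 3 per group; edgeR adjusted p = 0.792, 95% interval -0.14 to 1.51). The EXACT1 library with 9.11 CPM was replicate 1, the one that stood apart, and without it the difference was 0.30 (95% interval -0.12 to 0.71). CACNA1D, CACNA2D2 and CACNB3 had under 70 counts in every HepG2 library. Their differences were -0.31, -0.22 and 0.79, with 95% intervals that each span more than 4 log2 units. CACNB3 turned to -1.15 without EXACT1 replicate 1.

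In SH-SY5Y, 8 of the 10 genes were tested and 0 were called. Over all 19853 genes tested there, 0% were called by edgeR, while 200 (1.01%) had an unadjusted p under 0.05. DESeq2 called 9 and limma voom 1. CACNA2D2 differed by -0.09 ± 0.19 (95% interval -0.55 to 0.36), CACNA1G by 0.02 ± 0.25 (-0.56 to 0.61), CACNA1C by 0.09 ± 0.24 (-0.49 to 0.67) and CACNA1B by 0.12 ± 0.22 (-0.41 to 0.65). For these 4 genes the intervals left out a change of 2-fold in either direction. In the fit of 12 libraries that held for CACNA1C (-0.66 to 0.88) and was lost for CACNA1B (-1.26 to 1.55), CACNA1G (-1.51 to 1.60) and CACNA2D2 (-1.16 to 1.02). CACNA1D differed by 0.17 ± 0.36 and CACNA1E by 0.18 ± 0.37, with upper bounds just above a 2-fold change. CACNA2D1 differed by 0.58 ± 0.43 (-0.45 to 1.61; edgeR adjusted p = 0.796). CACNB3 differed by -0.80 ± 0.48 (-1.95 to 0.36; edgeR adjusted p = 0.796). Both values moved with control replicate 2, which was lowest of the SH-SY5Y libraries for CACNA2D1 and highest for CACNB3. Without it they were 0.25 and -0.02. The EXACT1 libraries overlapped the control libraries for all 8 genes, while 8.08% of tested genes did not overlap.

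**Figure D3:**
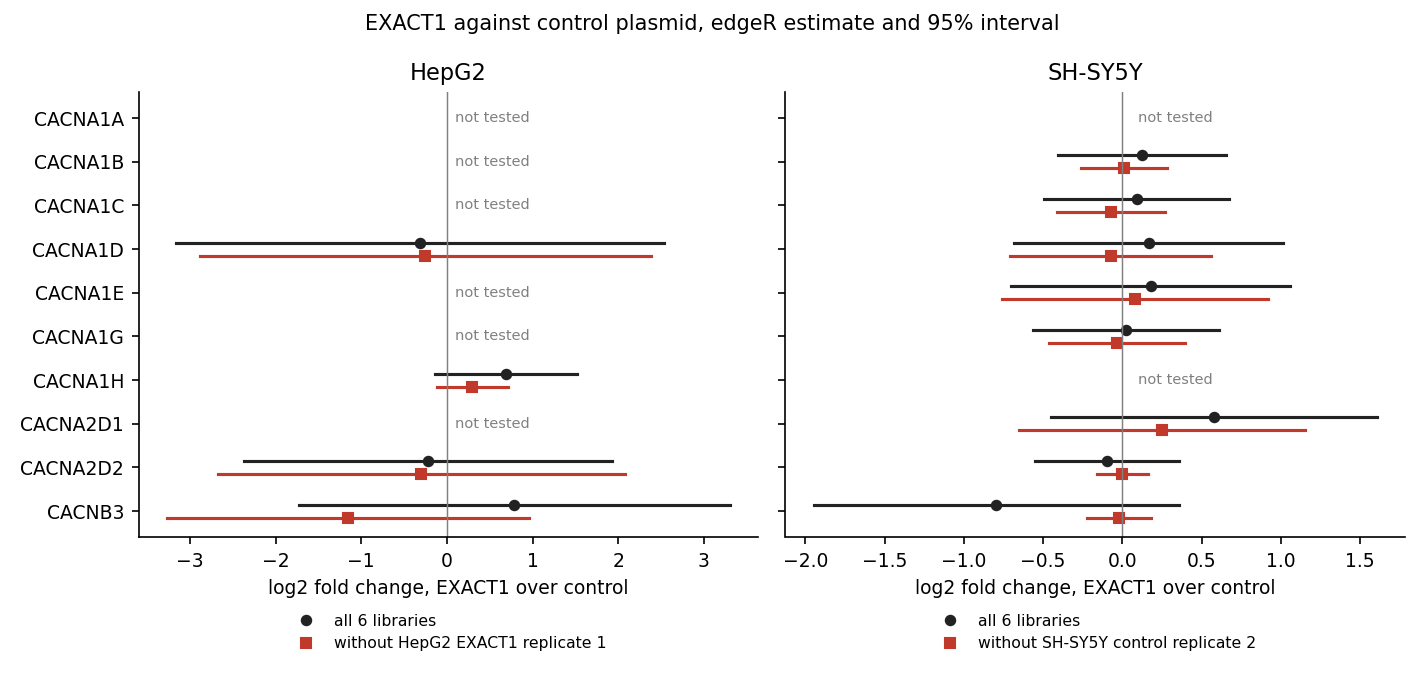
Log2 fold change of EXACT1 over control in HepG2 and SH-SY5Y, as edgeR estimates with 95% intervals, with all 6 libraries and without the library that stood apart. Every interval includes 0, and the CACNB3 estimate in SH-SY5Y moves from -0.80 to -0.02 without control replicate 2.

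The difference between lines in the EXACT1 effect was tested in a fit of 12 libraries. Of 22009 genes 0% were called by edgeR, 1907 (8.66%) had an unadjusted p under 0.05, and DESeq2 called 31 and limma voom 1. Of the 9 members tested 0 were called. The largest estimates belonged to genes with almost no counts in a line: 4.95 for CACNA1B and 4.85 for CACNA1G, which had 8 counts in all of HepG2, and -2.49 for CACNA1H (edgeR adjusted p = 0.487 for all 3). Without HepG2 control replicate 3, which held those 8 counts, CACNA1B fell to 0.15 and CACNA1G to 0.05. CACNA1C and CACNA1E had no count in HepG2 and give no estimate. For CACNA2D1, CACNA1D, CACNA2D2 and CACNB3 the values were 1.86, 0.44, 0.09 and -1.66, with edgeR adjusted p from 0.567 to 1.00. CACNB3 turned to 0.38 without HepG2 EXACT1 replicate 1 and was -0.76 without SH-SY5Y control replicate 2. CACNA2D1 was 1.13 without both.

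Within SH-SY5Y control, the library that stood apart was compared with the rest of its group. Replicates 1 and 3 also differed from each other, which the ratios below do not show. They held 19.6 and 12.3 CPM of CACNA1G, 1.12 and 1.90 CPM of CACNA1E, and 89.9 and 162.6 CPM of CACNA2D1. In replicate 2, the log2 ratio to the mean of replicates 1 and 3 was 1.20 for CACNB3, -0.18 for CACNA2D2 and -1.79 for CACNA2D1, and in between it ran down from -0.62 for CACNA1G through CACNA1E, CACNA1B and CACNA1C to -1.35 for CACNA1D. CACNB3, whose longest annotated transcript has 4029 bases, is the shortest of the 8, and the 7 that were lower have 5476 to 16171 bases. Over 14643 genes the ratio fell with transcript length, from a median of 0.58 in the shortest of 5 length classes to -1.45 in the longest (Spearman rho -0.50 across genes of a single library, which are not independent). Over the 8 channel genes rho was -0.43. Of these 8 genes, 7 lay above the median of their length class, among them CACNB3 (class median -0.56), and 1, CACNA2D1, lay below it (-1.45). HepG2 EXACT1 replicate 1 showed a like gradient (rho -0.50 over 12897 genes), while CACNA1H, with 8208 bases, was 0.60 above the mean of the other 2 EXACT1 libraries there. The part of transcript length in these deviations was not tested.

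**Figure D4:**
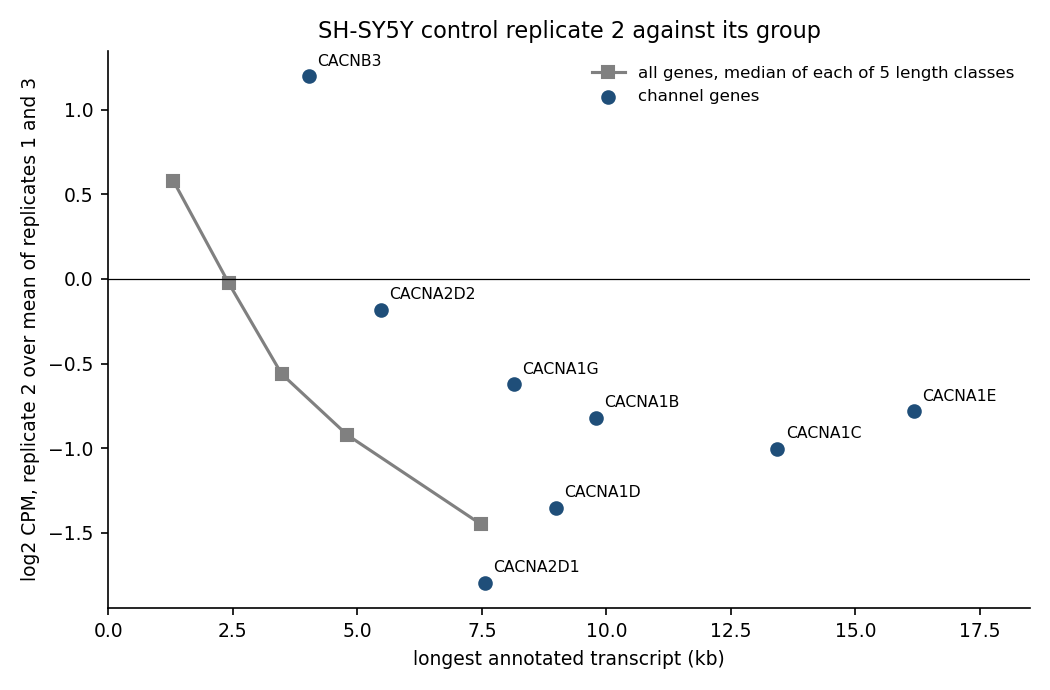
Log2 ratio of CPM in SH-SY5Y control replicate 2 to the mean of replicates 1 and 3, against the length of the longest annotated transcript, for 8 channel genes and as medians of all genes in 5 length classes. CACNB3 is at 1.20 and CACNA2D1 at -1.79, and the medians of all genes fall from 0.58 to -1.45.

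Genes that work with the channels were read from lists, which were also chosen with earlier results of these data known. Their counts stand against the shares of all tested genes, 30.0% higher and 23.2% lower in SH-SY5Y with the control plasmid and 28.1% and 24.3% with EXACT1. Of the 16 other subunit genes, 10 were tested between lines with the control plasmid, 8 were higher in SH-SY5Y and 2 lower, with a median log2 difference of 8.62. With EXACT1 8 were higher and 1 lower. CACNG4, a gamma-family subunit that also serves glutamate receptors, stood at 612 ± 32.9 CPM (SD, n = 3) in SH-SY5Y control and 0.573 ± 0.179 CPM in HepG2 control. CACNG7 had 80.0 ± 46.1 and 0.0899 ± 0.0869 CPM, and CACNB1 19.1 ± 5.39 and 0.987 ± 0.168 CPM. CACNA2D4 was the reverse, with 0.0872 ± 0.0783 CPM in SH-SY5Y control and 32.2 ± 4.01 CPM in HepG2 control.

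Of 18 channel regulators 17 were tested, 12 were higher in SH-SY5Y control and 3 lower (all tested genes 30.0% and 23.2%), with a median of 2.08. With EXACT1 these counts were 7 and 3 (all tested genes 28.1% and 24.3%). CALM2, a gene of calmodulin, which binds calcium and feeds back on the channels, was higher in SH-SY5Y by 1.00 ± 0.18 on the log2 scale with the control plasmid (edgeR adjusted p = 0.00363). CALM3 did not pass there (-0.15 ± 0.29), but with EXACT1 it was lower in SH-SY5Y (-0.88 ± 0.30; edgeR adjusted p = 0.0460). CRMP1, of a family of proteins in axon growth, was higher by 7.47 ± 0.35 with the control plasmid (edgeR adjusted p = 2.34e-05).

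The presynaptic release list, genes of the machinery that calcium entry sets off, had 16 of 18 higher and 1 lower with the control plasmid (all tested genes 30.0% and 23.2%), with a median of 6.30, and 15 higher and 1 lower with EXACT1. SNAP25, a membrane fusion protein, was higher by 8.36 ± 0.78, and RIMBP2, which ties calcium channels to release sites, by 10.79 ± 0.75 (edgeR adjusted p = 0.000313 and 0.000108). CPLX2, complexin, did not pass (0.33 ± 0.22; edgeR adjusted p = 0.237).

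Of the other routes of calcium, 8 of 22 tested genes were higher in SH-SY5Y and 7 lower with either plasmid, shares near those of all tested genes (30.0% and 23.2% with control, 28.1% and 24.3% with EXACT1). ITPR2, a calcium release channel of the endoplasmic reticulum, was lower in SH-SY5Y by 4.39 ± 0.46 on the log2 scale, with 199.6 ± 3.17 CPM (SD, n = 3) in HepG2 control and 15.7 ± 8.94 CPM in SH-SY5Y control. STIM1, which senses store calcium, stood at 91.2 ± 7.05 CPM in HepG2 control and 25.5 ± 7.69 CPM in SH-SY5Y control, a log2 difference of -2.50 ± 0.24 that passed. ORAI2, a store-operated channel, was higher in SH-SY5Y by 4.38 ± 0.27. The pump ATP2A2 did not pass (-0.28 ± 0.39). Of the calcium response genes, 6 of 15 tested were higher and 1 lower with control (all tested genes 30.0% and 23.2%), and 6 and 0 with EXACT1. NFATC3, a transcription factor that calcineurin activates, was lower in SH-SY5Y control (-0.88 ± 0.21; edgeR adjusted p = 0.0122). With EXACT1 it did not pass (-0.35 ± 0.49; edgeR adjusted p = 0.575). The calcineurin subunit PPP3R1 (-0.59 ± 0.32), CREB1 (-0.25 ± 0.43) and the kinase CAMK2D (-1.03 ± 0.41) did not pass with control. No gene of these lists was called between plasmids in HepG2 or SH-SY5Y, where edgeR called 0% of genes.

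The counting could join reads of overlapping genes. Exons of CACNA1B, CACNA1C, CACNA1D, CACNA1G, CACNA1H and CACNA2D2 overlap exons of 1 or more genes on the opposite strand. Among these are CHDH for CACNA1D, TPSG1 for CACNA1H and CYB561D2 for CACNA2D2. The strand setting of the counting is not given in the sources used here. Whether the low HepG2 counts of CACNA1D and CACNA2D2 hold such reads was not tested. No member shares exon sequence with a gene on its own strand.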

How the data were processed

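A stranded kit for polyadenylated RNA was used for all 18 libraries, per the labels. The authors deposited raw counts, whole numbers for each Ensembl ID, without normalization. The submitters' processing notes name the build GRCh38 (hg38) and the tools HISAT2, cutadapt, StringTie, limma and edgeR. Tool versions and the settings of counting were not given in the sources used here. Titles gave the group and number of each replicate. Whether replicates came from separate cultures is not said, and p-values then measure the spread between libraries alone, which may be technical.

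Of 60612 rows, 60401 matched a symbol by ID. Library totals set the precision: a count of 0 allows up to 3 counts, for counting error only and if the deposited counts are numbers of reads. The 12 HepG2 and SH-SY5Y libraries were used. HEK293A was left out because, of 6574 genes with over 500 counts in all 12, 38.9% were at 0 in all 6 HEK293A libraries, EEF1A1 and GAPDH among them.

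Counts were tested with edgeR 4.0.16 in R 4.3.3 (filterByExpr, TMM scaling, robust quasi-likelihood F test, two-sided), with Benjamini-Hochberg adjustment over all genes tested and calls at 0.05. Each pair of groups was fitted on its own 6 libraries, and the difference of EXACT1 effects on 12. The test was tried on simulated counts, with the spread of each gene estimated without the libraries that stood apart. That trial therefore does not show how the test behaves with the spread those libraries bring. CPM are relative to library totals, and RPKM use the union of exons of GENCODE release 29. The SE and 95% intervals are approximations derived from the edgeR fit. The SE is the absolute log2 difference divided by the square root of F, and the interval is symmetric, from a t distribution. All 10 members are named throughout. Of each list, up to 4 genes with the highest mean CPM over the 12 libraries are named, except some that are not reported here. The members and lists were chosen with earlier results of these data known. Alternatives were DESeq2 1.42.0, limma 3.58.1 voom with sample weights, other scalings, other filters, a fold threshold, a replicate block, a fit of 12 libraries, each library left out in turn, and the longest transcript for RPKM.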

Additional observations from a re-analysis of the deposited data

How the results depend on the processing

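Every line difference of a member kept its direction under every alternative, and the only call lost was that of CACNA1D with EXACT1, in the fit of 12 libraries (2.35). A minimum mean CPM of 5 left 6660 genes called between lines with the control plasmid, 5 of them channel genes, and 6320 with EXACT1, because fewer genes were tested. Between plasmids, no channel gene was called under any alternative. DESeq2 called 10 genes in HepG2, 9 in SH-SY5Y and 31 for the difference of effects, and limma voom called 2, 1 and 1. With each library left out in turn, calls ranged from 0 to 2 in HepG2 and from 0 to 1 in SH-SY5Y. The 2 came without EXACT1 replicate 1 and the 1 without control replicate 2. Without both of these libraries, 2 genes were called for the difference of effects. The cause of these moves was not tested.

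Directions of uncalled members turned as follows, as log2 differences. Under limma voom, HepG2 gave 0.96 for CACNA1D, 0.53 for CACNA2D2 and -0.88 for CACNB3. SH-SY5Y gave -0.11 for CACNA1C, -0.022 for CACNA1D, -0.15 for CACNA1G and 0.013 for CACNA2D2, and the difference of effects gave -1.09 for CACNA1D, -0.45 for CACNA2D2 and 0.87 for CACNB3. Without scaling, CACNA2D2 in SH-SY5Y was 0.066. With a library left out, the HepG2 values ranged from -0.90 to 0.22 for CACNA1D, from -0.68 to 1.19 for CACNA2D2 and from -1.15 to 1.45 for CACNB3. In SH-SY5Y they ranged from -0.072 to 0.25 for CACNA1C, from -0.074 to 0.33 for CACNA1D and from -0.11 to 0.26 for CACNA1G. For the difference of effects, CACNA1D ranged from -0.092 to 1.02, CACNA2D2 from -1.33 to 0.55 and CACNB3 from -2.32 to 0.38, and CACNB3 was 1.13 without both libraries that stood apart. The cause was not tested.

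Whether replicate numbers pair the libraries was not decided. Same-numbered deviations correlated between 0.0086 and 0.39 in SH-SY5Y, -0.071 and 0.107 in HepG2, and between lines 0.022 and 0.106 with control and -0.133 and -0.025 with EXACT1. For libraries of different number the values ran from -0.284 to 0.094 in SH-SY5Y and from -0.110 to 0.098 in HepG2. Between lines they ran from -0.111 to 0.038 with control and from -0.080 to 0.154 with EXACT1. With a replicate block, 8725 and 7809 genes were called between lines, and 0 in each comparison of plasmids and for the difference of effects. It changed no call of a member. In the block, HepG2 gave 0.36 for CACNA1D, 0.35 for CACNA2D2 and -0.0017 for CACNB3, and the difference of effects -0.091 for CACNA1D and -0.29 for CACNA2D2. CACNA1A in every comparison, and 6 of the 10 members between plasmids in HepG2, had too few counts to be tested.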
